A study of Homo sapiens with 17 samples.

Results

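The regions described here are the promoter peaks of genes that were silent in untreated HepG2 cells. They were chosen by RNA level: a peak was kept where the authors' annotation reads exactly "Promoter" and its gene averaged under 0.1 CPM (here raw counts over the library total, scaled to 1000000) in the 3 RNA libraries at 0 µM. The rule kept 1629 of 58372 peaks with ATAC-seq counts, or 2.79%, and 8.24% of the 19763 promoter peaks. They belong to 1394 genes, of which 1195 have 1 such peak and 199 have more. Because low RNA at 0 µM chose the members, their RNA at 2 or 10 µM against 0 µM is given as a description and is not tested. Beyond the need to be in the authors' peak list, accessibility played no part in the choice. ATAC-seq differences between doses are therefore tested, as is RNA at 10 µM against 2 µM. The list names each peak for 1 dose, with 477 members for 0 µM, 505 for 2 µM and 647 for 10 µM. At 10 µM against 0 µM, those named for 10 µM had 407 rises and 0 falls. Those named for 0 µM had 3 and 257. A peak may have entered through the dose at which it was high, which limits what its direction shows. This holds for all peaks too.

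HepG2 is an established human liver cancer cell line, wild type in the labels, with albumin and other liver transcripts as its defining RNAs. Cells were kept for 4 days in medium renewed each day, with 5-azacytidine at 0 µM (the control), 2 µM or 10 µM. Each dose has 3 RNA-seq libraries. The control and 2 µM have 3 ATAC-seq libraries each, and 10 µM has 2. The labels do not say whether replicates were separate cultures, so p-values measure the spread between these libraries, which may be technical. RNA libraries held 35553052 to 46430168 counts, and ATAC-seq libraries 2896671 to 7864321 counts in peaks. The summed RNA of 8 liver markers was lower with dose, at 33936 to 55823 CPM per library in the control, 14997 to 26078 CPM with 2 µM, and 1218 to 2000 CPM with 10 µM. The summed RNA of 4 leukocyte markers, at 2327 to 3452 CPM, 1119 to 1679 CPM and 91.1 to 120 CPM in the same order, was mostly that of LYZ, and PTPRC, the pan-leukocyte marker, had no count in any library. The summed RNA of 3 fibroblast markers was 5.43 to 23.8 CPM, 3.47 to 13.1 CPM and 0.519 to 0.694 CPM in the same order, and that of 3 endothelial markers 1.49 to 10.5 CPM, 2.91 to 8.74 CPM and 0.311 to 0.930 CPM. The part of these shifts in the results below was not tested. In bulk libraries, fewer cells of a kind and less RNA per cell cannot be told apart.

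5-Azacytidine is a cytidine analogue that cells build into RNA and DNA. In DNA it traps DNA methyltransferases, so that methylation of cytosines followed by guanines (CpG sites) is lost as cells divide. Promoters rich in CpG sites are known to be kept silent in cancer cells by methylation, while many tissue-specific promoters hold few CpG sites and depend on factors that the cell type lacks. ATAC-seq counts transposase insertions and so reads how open the chromatin is. It does not read methylation, and an open promoter need not be transcribed.

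Promoter sequences of 8 members show the range of the regions at issue. Each is the 250 bases before a RefSeq start (GRCh38.p14) that lies within the member's peak or overlaps it, printed 5′ to 3′ on the gene's strand with every CpG in capitals. They were picked after their values were seen, as members on which the results below turn and whose peak overlaps the window. DHRS9 (chr2:169069313-169069562, plus strand) and CRYBA2 (chr2:218993423-218993672, minus strand) opened at 10 µM and gained RNA. LINC00706 (chr10:6779181-6779430, minus strand) and KRTAP4-2 (chr17:41178222-41178471, minus strand) opened at 10 µM without any RNA count. ACTL10 (chr20:33666693-33666942, plus strand) opened at 2 µM, and LAT (chr16:28984553-28984802, plus strand) at both doses. ANKRD44 (chr2:197310781-197311030, minus strand) gained RNA with no called change of its peak, and KCNN3 (chr1:154870282-154870531, minus strand) closed.
DHRS9: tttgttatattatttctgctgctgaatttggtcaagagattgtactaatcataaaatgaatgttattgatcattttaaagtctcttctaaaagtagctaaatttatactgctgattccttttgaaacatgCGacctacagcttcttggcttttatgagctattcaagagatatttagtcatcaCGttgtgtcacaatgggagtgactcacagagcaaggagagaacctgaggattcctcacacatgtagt
CRYBA2: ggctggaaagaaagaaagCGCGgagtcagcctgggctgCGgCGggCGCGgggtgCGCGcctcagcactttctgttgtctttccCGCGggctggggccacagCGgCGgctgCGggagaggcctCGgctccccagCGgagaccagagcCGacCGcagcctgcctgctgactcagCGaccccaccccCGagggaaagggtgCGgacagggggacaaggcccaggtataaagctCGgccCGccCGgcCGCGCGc
ANKRD44: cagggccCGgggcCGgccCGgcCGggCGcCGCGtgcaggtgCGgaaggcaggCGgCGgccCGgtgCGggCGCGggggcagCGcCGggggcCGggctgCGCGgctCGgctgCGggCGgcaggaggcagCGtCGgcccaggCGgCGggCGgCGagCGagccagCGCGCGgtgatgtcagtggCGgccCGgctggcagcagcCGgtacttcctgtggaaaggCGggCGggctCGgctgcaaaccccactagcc
LINC00706: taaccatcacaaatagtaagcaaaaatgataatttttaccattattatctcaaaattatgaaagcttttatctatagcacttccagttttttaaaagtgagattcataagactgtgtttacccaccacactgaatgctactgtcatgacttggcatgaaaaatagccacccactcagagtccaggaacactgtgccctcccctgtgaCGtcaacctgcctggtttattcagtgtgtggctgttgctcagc
KRTAP4-2: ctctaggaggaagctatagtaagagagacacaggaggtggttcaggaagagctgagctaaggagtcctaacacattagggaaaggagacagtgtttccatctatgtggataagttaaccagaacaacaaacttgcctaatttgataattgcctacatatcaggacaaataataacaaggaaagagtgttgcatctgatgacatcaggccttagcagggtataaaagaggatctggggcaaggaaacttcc
ACTL10: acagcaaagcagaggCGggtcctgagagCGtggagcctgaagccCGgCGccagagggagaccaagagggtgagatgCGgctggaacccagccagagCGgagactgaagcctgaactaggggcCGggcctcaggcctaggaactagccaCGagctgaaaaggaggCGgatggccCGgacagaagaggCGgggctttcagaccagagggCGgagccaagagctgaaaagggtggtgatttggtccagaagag
LAT: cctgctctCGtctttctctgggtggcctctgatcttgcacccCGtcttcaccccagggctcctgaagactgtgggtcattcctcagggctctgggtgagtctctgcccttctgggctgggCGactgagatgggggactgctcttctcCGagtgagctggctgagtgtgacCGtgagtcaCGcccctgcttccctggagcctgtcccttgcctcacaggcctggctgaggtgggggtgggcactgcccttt
KCNN3: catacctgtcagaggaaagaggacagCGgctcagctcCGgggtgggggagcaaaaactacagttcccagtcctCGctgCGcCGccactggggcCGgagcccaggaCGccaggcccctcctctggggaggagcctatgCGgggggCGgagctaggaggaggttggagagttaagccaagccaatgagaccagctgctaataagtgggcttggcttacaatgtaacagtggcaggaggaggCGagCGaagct

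The CpG dinucleotide (CG, the same on both strands) occurred 2 times in the DHRS9 window, 26 times in CRYBA2, 38 in ANKRD44, 1 in LINC00706, 0 in KRTAP4-2, 12 in ACTL10, 6 in LAT and 11 in KCNN3. The median over 35116 RefSeq promoter windows was 11. At least 38 CpG sites were held by 3.28% of all windows, at least 26 by 19.6%, at least 11 by 50.3% and at least 2 by 85.3%. Of the 4 windows picked because their peak opened at 10 µM, CRYBA2 stood above the median and the other 3 below it. A comparison of CpG or GC content over all members was void, since 65.4% of the peaks had a RefSeq window of their gene, under the 80% needed.

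Promoters of silent genes opened and closed in like numbers at 10 µM. Of 1629 peaks, 448 rose and 377 fell at 10 µM against 0 µM (edgeR quasi-likelihood test, Benjamini-Hochberg adjusted p under 0.05 over all peaks). These are 27.5% and 23.1% of the members, against 29.9% and 27.6% of all peaks, so neither share stood above the background. The median log2 difference was 0.07 over the members and 0.05 over all peaks. Without the 10 µM replicate 1 the members' median changed sign to -0.04 and that of all peaks to -0.03, and with library totals in place of TMM scaling they were 0.00 and -0.02.

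Among promoter peaks of genes at 1 CPM or more at 0 µM (n = 16478), 19.6% rose and 13.6% fell at 10 µM against 0 µM. The members therefore held more calls in each direction than promoters of expressed genes, with closing peaks forming the larger gap, though the difference between the 2 sets was not tested. Promoter peaks of genes from 0.1 to 1 CPM at 0 µM (n = 1651) stood between, with 23.4% that rose and 19.8% that fell. The larger shares were thus not particular to silent genes. Members were also less open to begin with, and their median level was 14.1, 14.2 and 14.9 CPM at 0, 2 and 10 µM, against 19.9, 18.8 and 20.9 CPM for promoters of expressed genes. The share of all ATAC-seq counts in members was 2.99% and 2.85% at 10 µM, and lay between 2.80% and 2.87% in the libraries of the lower doses.

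At 2 µM fewer peaks moved, and more rose than fell. Against 0 µM, 179 members rose (11%) and 66 fell (4.05%), beside 15.5% and 7.3% of all peaks. Without the 0 µM replicate 2, 82 rose. The 66 that fell became 38 without the 2 µM replicate 2, 135 without the 10 µM replicate 1 and 134 without the 10 µM replicate 2. With DESeq2, 96 rose and 45 fell, and with relative-log-expression scaling 155 rose and 96 fell. Between the treated doses, 433 members rose (26.6%) and 362 fell (22.2%) at 10 µM against 2 µM, beside 27.5% and 27.6% of all peaks.

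**Figure D1:**
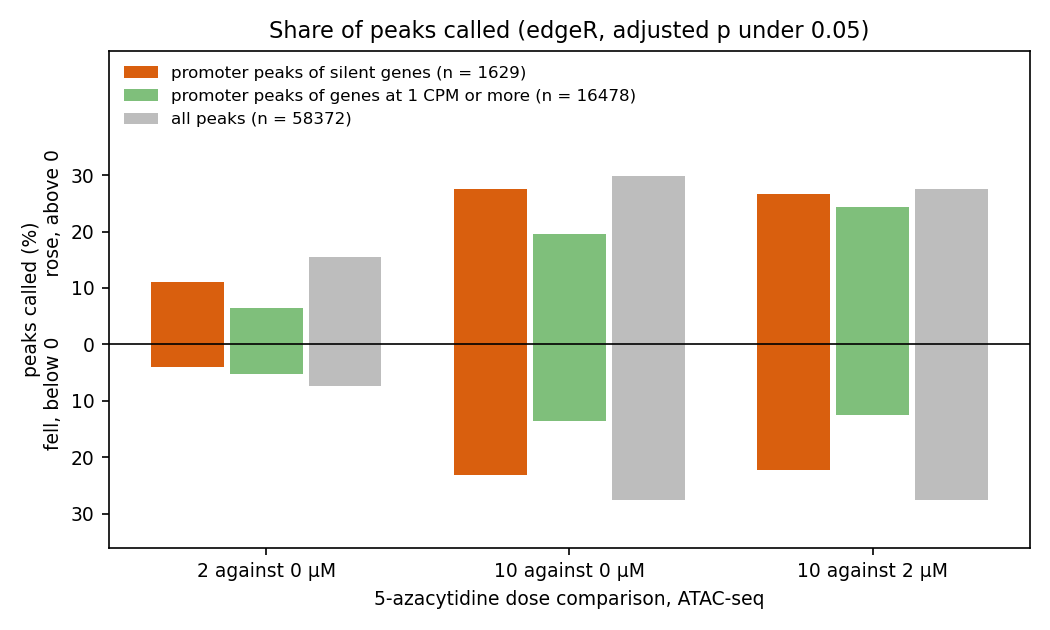
Bars give the percentage of peaks called higher (above 0) or lower (below 0) by ATAC-seq in each dose comparison, for the 1629 promoter peaks of silent genes, the 16478 promoter peaks of genes at 1 CPM or more, and all 58372 peaks. At 10 against 0 µM, 23.1% of the promoters of silent genes are lower, beside 13.6% of the promoters of genes at 1 CPM or more and 27.6% of all peaks.

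The annotated start lay inside the peak for 1147 members, downstream of it for 409, and upstream of it for 73, all within 1000 bp upstream to 100 bp downstream of the start. Protein-coding genes held 942 of the peaks, long non-coding RNAs 429, microRNA genes 165, transcribed pseudogenes 66 and other RNA kinds 27. In the protein-coding group 251 peaks rose (26.6%) and 232 fell (24.6%) at 10 µM against 0 µM. Of the long non-coding RNA peaks 127 rose (29.6%) and 91 fell (21.2%), and of the microRNA peaks 37 rose and 37 fell (22.4% each). Of the transcribed pseudogene peaks 18 rose (27.3%) and 12 fell (18.2%). None of these shares stood above the 29.9% and 27.6% of all peaks. Among the other RNA kinds, 7 of 8 small nuclear RNA peaks rose (87.5%) and 0 fell. Of 14 small nucleolar RNA peaks 6 rose (42.9%) and 4 fell (28.6%). With so few peaks, these small RNA groups cannot be read as differing from all peaks. At 2 µM against 0 µM, 26 microRNA peaks rose (15.8%) and 2 fell (1.21%), beside 15.5% and 7.3% of all peaks.

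A silent gene's promoter can also be that of an expressed neighbour. For 265 members (16.3%) a RefSeq start of another gene at 1 CPM or more lay within 1000 bp of the peak. Of these, 65 rose (24.5%) and 12 fell (4.53%) at 10 µM against 0 µM. The other 1364 had 383 rises (28.1%) and 365 falls (26.8%), shares near the 29.9% and 27.6% of all peaks. With 10 µM against 2 µM the 265 had 86 rises and 9 falls, and the 1364 had 347 and 353. The difference between these groups was not tested, and the split was added after the data were seen.

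The authors' annotation also counts starts of minor transcripts. Of the members whose gene has a RefSeq promoter window on that chromosome, 808 lay within 1000 bp of one and 257 lay farther away. Of the 808, 198 rose (24.5%) and 193 fell (23.9%) at 10 µM against 0 µM, while 93 of the 257 rose (36.2%) and 57 fell (22.2%), beside 29.9% and 27.6% of all peaks. The difference between these groups was not tested. Several of the strongest openings belong to the 257, as given with each below. RefSeq tables are not complete, and 564 members had no window.

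DHRS9 (ENSG00000073737, peak at chr2:169069303-169069803, over the start) encodes a short-chain dehydrogenase that acts on retinol and related substrates. Its peak had 3.15, 1.22 and 1.33 CPM at 0 µM, 2.06, 1.38 and 2.32 CPM at 2 µM, and 14.8 and 14.8 CPM at 10 µM. The peak opened at the high dose while 0 and 2 µM overlapped. The log2 difference was 3.06 ± 0.30 (SE) at 10 µM against 0 µM (edgeR, adjusted p = 2.11e-10) and 2.85 ± 0.31 against 2 µM (edgeR, adjusted p = 5.75e-09). Its RNA was 0, 0.129 and 0.102 CPM at 0 µM, 3.94, 5.02 and 0.853 CPM at 2 µM, and 67.2, 32 and 38.4 CPM at 10 µM, the highest RNA of any member at 10 µM. The RNA difference at 10 µM against 2 µM was 3.81 ± 0.55 on the log2 scale (edgeR, adjusted p = 0.000185).

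CRYBA2 (ENSG00000163499) encodes a beta-crystallin of the lens and has 2 member peaks. The one over the start (chr2:218993309-218993809) had 8.49, 6.93 and 8.14 CPM at 0 µM, 5.15, 9.63 and 7.77 CPM at 2 µM, and 19 and 19.1 CPM at 10 µM. It rose at 10 µM against 0 µM by 1.30 ± 0.21 (log2, edgeR, adjusted p = 2.21e-06), with no overlap of the doses. The gene had no RNA count at 0 µM, which allows up to 0.0273 CPM (3 counts over the group, counting error only). Its RNA was 0.477, 0.146 and 0 CPM at 2 µM and 4.78, 3.54 and 4.21 CPM at 10 µM. The RNA log2 difference of 4.35 ± 0.80 at 10 µM against 2 µM (edgeR, adjusted p = 0.00152) became 5.84 without the 2 µM replicate 1 and 3.72 without the 2 µM replicate 3.

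KCNMA1 (ENSG00000156113), the pore-forming subunit of the large-conductance calcium-activated potassium channel, opened at 10 µM far from its main start. The peak (chr10:76973945-76974445) lies 376316 bp from the nearest RefSeq window start of the gene, so it need not be the promoter of the RNA counted. It had 1.46, 0.408 and 0.379 CPM at 0 µM, 0.344, 1.38 and 1.36 CPM at 2 µM, and 8.85 and 9.57 CPM at 10 µM. The log2 difference at 10 µM against 0 µM was 3.75 ± 0.41 (edgeR, adjusted p = 1.36e-09), and 4.4 without the 0 µM replicate 1. RNA of the gene had no count at 0 µM, 0, 0.0970 and 0.0639 CPM at 2 µM, and 5.72, 2.94 and 2.04 CPM at 10 µM. The RNA log2 difference at 10 µM against 2 µM was 5.96 ± 0.74 (edgeR, adjusted p = 0.000121) and 6.59 without the 2 µM replicate 2.

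NTNG1 (ENSG00000162631), a membrane-anchored netrin that guides axons, opened by smaller steps. Its peak had 14 and 12 CPM at 10 µM, against 4.37, 2.58 and 3.03 CPM at 0 µM, a log2 difference of 2.02 ± 0.27 (edgeR, adjusted p = 5.78e-08). The 2 µM libraries stood between, at 6.53, 4.47 and 6.96 CPM. Its RNA was 0, 0.103 and 0.0512 CPM at 0 µM, 2.08, 3.35 and 0.362 CPM at 2 µM, and 15.1, 8.44 and 9.52 CPM at 10 µM. The RNA difference at 10 µM against 2 µM was 2.52 ± 0.60 on the log2 scale (edgeR, adjusted p = 0.00539), and 3.18 without the 2 µM replicate 2. In DHRS9, NTNG1 and CRYBA2 alike, the 2 µM replicate 3 had the lowest RNA of its dose.

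In other genes, named in part for their RNA change, the RNA differed far more between 10 and 2 µM than the peak did. TMCC3 (ENSG00000057704), a membrane protein of the endoplasmic reticulum, had RNA of 0, 0.0257 and 0.0768 CPM at 0 µM, 0.552, 0.582 and 0.0426 CPM at 2 µM, and 26.9, 14.8 and 18.1 CPM at 10 µM. RNA at 10 µM exceeded that at 2 µM by 5.68 ± 0.62 (log2, edgeR, adjusted p = 2.09e-05). Its peak had 15.3 and 12.6 CPM at 10 µM, against 8.97, 6.93 and 8.33 CPM at 0 µM, a log2 difference of 0.82 ± 0.22 (edgeR, adjusted p = 0.0016). No library of the peak at 10 µM overlapped the control. Against 2 µM the peak rose by 0.70 ± 0.23 (log2, edgeR, adjusted p = 0.00989). That call was lost without the 2 µM replicate 3 (0.48) and with DESeq2 (0.67).

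RASGRP3 (ENSG00000152689), an exchange factor for Ras and Rap, was of the same kind. The peak had 35.7 and 33.9 CPM at 10 µM, against 21.1, 17.8 and 22.7 CPM at 0 µM (log2 difference 0.77 ± 0.17, edgeR, adjusted p = 0.00016). Against 2 µM the peak rose by 0.58 ± 0.17 (log2, edgeR, adjusted p = 0.00481). The RNA was 0, 0 and 0.0256 CPM at 0 µM, 0.301, 0.388 and 0.0639 CPM at 2 µM, and 6.96, 2.88 and 4.89 CPM at 10 µM (log2 difference at 10 µM against 2 µM 4.29 ± 0.59, edgeR, adjusted p = 0.000122). OSBPL1A (ENSG00000141447), an oxysterol-binding protein relative, had 21.7 and 20.7 CPM in its peak at 10 µM, against 13.1, 13.5 and 14.6 CPM at 0 µM. The OSBPL1A peak exceeded 2 µM by 0.75 ± 0.18 (log2, edgeR, adjusted p = 0.000729). Its RNA was 0.0313, 0.129 and 0.102 CPM at 0 µM, 0.1, 0.097 and 0.149 CPM at 2 µM, and 3.21, 2.31 and 3.01 CPM at 10 µM (log2 difference at 10 µM against 2 µM 4.57 ± 0.48, edgeR, adjusted p = 1.56e-05). POPDC3 (ENSG00000132429), a Popeye-domain protein of muscle membranes, had RNA of 6.03, 3.52 and 3.01 CPM at 10 µM, against 0.452, 0.776 and 0.149 CPM at 2 µM (log2 difference 3.19 ± 0.60, edgeR, adjusted p = 0.00118, and 3.81 without the 2 µM replicate 2). Its peak had 11.9 and 12.6 CPM at 10 µM, against 7.03, 4.76 and 6.82 CPM at 0 µM (log2 difference 1.01 ± 0.25, edgeR, adjusted p = 0.000678). Against 2 µM the peak rose by 0.88 ± 0.26 (log2, edgeR, adjusted p = 0.00441), a call lost without the 2 µM replicate 3 (0.63).

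**Figure D2:**
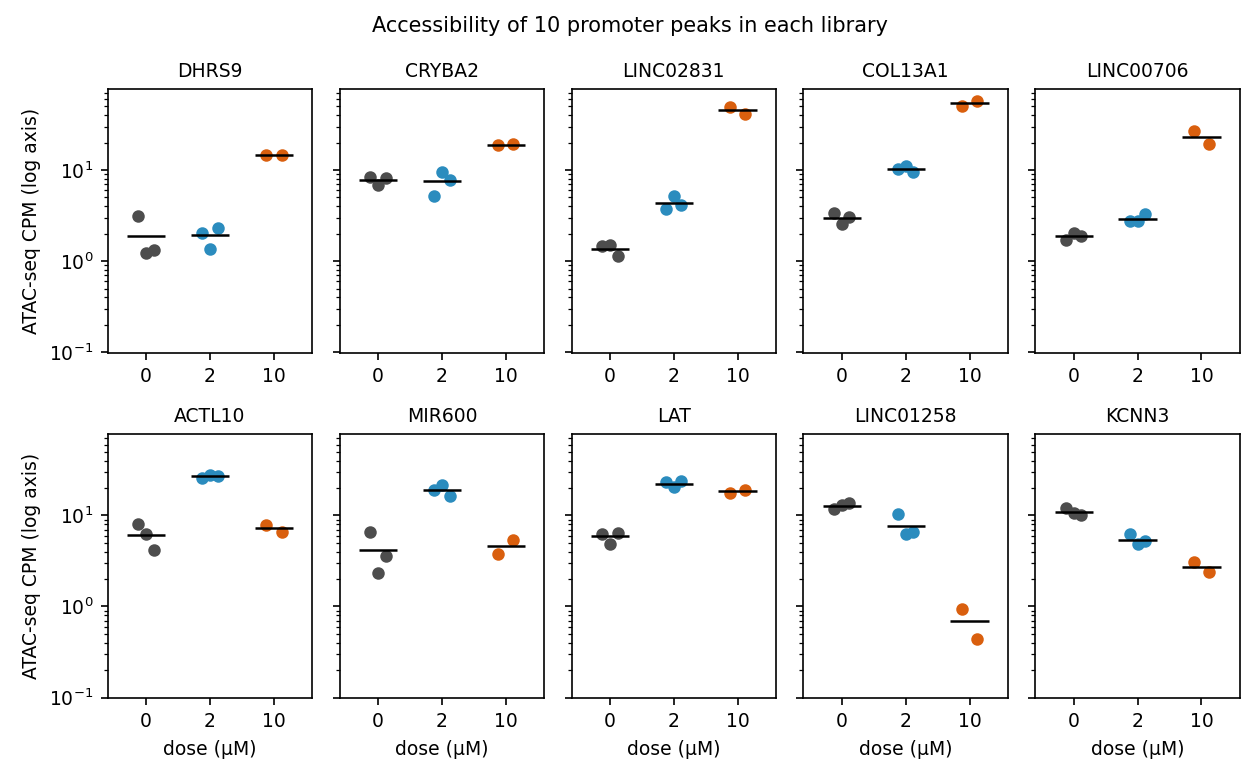
Points are ATAC-seq levels (CPM, log axis) of 10 promoter peaks in each of the 8 libraries by dose, with the mean of each dose as a line. DHRS9, CRYBA2, LINC02831, COL13A1 and LINC00706 are highest at 10 µM, ACTL10 and MIR600 at 2 µM alone, LAT at both doses, while LINC01258 and KCNN3 are lower in treated libraries.

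Several of the largest openings came with little or no RNA. LINC02831 (ENSG00000224173, chr2:67561465-67561965), a long intergenic non-coding RNA, had 1.46, 1.5 and 1.14 CPM at 0 µM, 3.78, 5.16 and 4.09 CPM at 2 µM, and 49.2 and 41.5 CPM at 10 µM. The log2 difference at 10 µM against 0 µM was 5.03 ± 0.23 (edgeR, adjusted p = 1.07e-16), the largest of any member. The 3 doses did not overlap. The nearest RefSeq start of the gene was 2335 bp away. None of the 9 RNA libraries held a count of the gene, which at 10 µM allows up to 0.0209 CPM.

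SFTA3 (chr14:36478658-36479158), a lung-associated locus listed as a long non-coding RNA, had 37.2 and 26.3 CPM at 10 µM, against 1.94, 1.5 and 1.89 CPM at 0 µM, and no RNA count in any library. LINC00706 had 26.7 and 19.1 CPM in its peak at 10 µM, against 1.70, 2.04 and 1.89 CPM at 0 µM. KRTAP4-2, a hair keratin-associated protein, had 18.2 and 17.0 CPM at 10 µM, against 1.46, 1.22 and 1.52 CPM at 0 µM. Neither of these had an RNA count in any library. NR2E3, a nuclear receptor of photoreceptors, had 43.3 and 43.7 CPM in its peak at 10 µM, against 1.70, 2.86 and 2.84 CPM at 0 µM, and its RNA had 8 counts at 2 µM and 0 at 10 µM. The peaks of LINC02831, SFTA3, LINC00706, KRTAP4-2 and NR2E3 all passed the test at 10 µM against 0 µM (edgeR, adjusted p from 1.07e-16 to 9.36e-13).

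COL13A1 (ENSG00000197467), a transmembrane collagen, had a peak and RNA that parted. The peak (chr10:69874464-69874964) had 3.40, 2.58 and 3.03 CPM at 0 µM, 10.3, 11 and 9.55 CPM at 2 µM, and 51.0 and 57.4 CPM at 10 µM. It rose by 4.19 ± 0.20 (log2) at 10 µM against 0 µM (edgeR, adjusted p = 1.07e-16) and by 2.41 ± 0.17 against 2 µM (edgeR, adjusted p = 2.54e-12). RNA was 0, 0 and 0.0256 CPM at 0 µM, 0.728, 0.291 and 1.04 CPM at 2 µM, and 0.574, 0.653 and 0.283 CPM at 10 µM. RNA at 10 µM and 2 µM overlapped, with a log2 difference of -0.45 ± 0.61 (edgeR, adjusted p = 0.588).

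In 3 more coding genes the peak rose and the RNA had at most 9 counts per dose. MYPN (myopalladin of the sarcomere) had 17.4 and 10.0 CPM in its peak at 10 µM, against 1.21, 0.408 and 0.758 CPM at 0 µM. TXLNB (beta-taxilin of muscle) had 17.4 and 16.7 CPM at 10 µM, against 1.70, 1.5 and 0.189 CPM at 0 µM, and FBN2 (fibrillin-2) had 14.2 and 11.1 CPM at 10 µM, against 0.970, 0.952 and 1.52 CPM at 0 µM. These peaks rose at 10 µM against 0 µM (edgeR, adjusted p from 1.84e-11 to 4.31e-11). The nearest RefSeq start of the gene was 26897 bp away for MYPN, 28797 bp for TXLNB, 265701 bp for FBN2, 72558 bp for COL13A1, 34377 bp for SFTA3 and 18913 bp for NR2E3. The RNA counts are of the whole gene and not of the start beside the peak.

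A separate set opened at 2 µM and was back near its control level at 10 µM. ACTL10 (actin-like 10, chr20:33666551-33667051) had 8, 6.25 and 4.17 CPM at 0 µM, 25.8, 27.8 and 27.1 CPM at 2 µM, and 7.91 and 6.52 CPM at 10 µM. The log2 difference was 2.15 ± 0.20 at 2 µM against 0 µM (edgeR, adjusted p = 5.46e-09), -1.88 ± 0.22 at 10 µM against 2 µM (edgeR, adjusted p = 1.19e-08), and 0.28 ± 0.25 at 10 µM against 0 µM (edgeR, adjusted p = 0.358). ACTL10 RNA was 0, 0.0514 and 0 CPM at 0 µM, 0.577, 0.194 and 0.384 CPM at 2 µM, and 0.0718, 0.0192 and 0.303 CPM at 10 µM. RNA at 2 and 10 µM overlapped.

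MIR600 (chr9:123111900-123112400) had 6.55, 2.31 and 3.60 CPM at 0 µM, 18.9, 21.7 and 16.5 CPM at 2 µM, and 3.76 and 5.44 CPM at 10 µM. MIR623 (chr13:99355894-99356394) had 4.85, 4.76 and 3.03 CPM at 0 µM, 21.0, 15.5 and 11 CPM at 2 µM, and 4.16 and 6.52 CPM at 10 µM. Both had log2 differences at 2 µM against 0 µM past the test, of 2.27 ± 0.26 for MIR600 and 1.83 ± 0.26 for MIR623 (edgeR, adjusted p = 1.46e-07 and 5.7e-06). MIR4437 (chr2:181305627-181306127) did the reverse at the high dose, with 3.22 and 4.13 CPM at 10 µM, against 29.8, 30.7 and 22.9 CPM at 0 µM. These microRNAs act by pairing their seed, bases 2 to 8 of the mature strand, with messenger RNAs. The RNA libraries do not measure mature microRNAs. Their mature sequences from RefSeq (GRCh38.p14), printed 5′ to 3′ with the seed in capitals to identify them, share no seed.
hsa-miR-4437: uGGGCUCAggguacaaagguu
hsa-miR-600: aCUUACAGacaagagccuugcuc
hsa-miR-623: aUCCCUUGcaggggcuguugggu

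HMGA2-AS1, antisense to the chromatin protein gene HMGA2, had 3.88, 2.86 and 4.17 CPM in its peak at 0 µM, 17.2, 15.5 and 11 CPM at 2 µM, and 1.61 and 3.48 CPM at 10 µM. NRN1L, a neuritin relative, had 4.37, 1.90 and 3.22 CPM at 0 µM, 9.97, 7.91 and 12.8 CPM at 2 µM, and 4.43 and 5.00 CPM at 10 µM. The non-coding gene ENSG00000287346 had 5.58, 3.67 and 2.65 CPM at 0 µM, 16.5, 16.5 and 13.6 CPM at 2 µM, and 1.88 and 1.52 CPM at 10 µM, below its control. LAT, the adaptor that links the T-cell receptor to its signalling chain, differed in staying open: 6.31, 4.89 and 6.44 CPM at 0 µM, 23.4, 20.3 and 23.6 CPM at 2 µM, and 17.8 and 19.1 CPM at 10 µM. Its RNA had no count in any library.

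Other promoters closed, some already at 2 µM. LINC01258 (ENSG00000249534, chr4:38491004-38491504) had 11.6, 12.9 and 13.8 CPM at 0 µM, 10.3, 6.19 and 6.55 CPM at 2 µM, and 0.939 and 0.435 CPM at 10 µM. The log2 difference at 10 µM against 0 µM was -4.07 ± 0.37 (edgeR, adjusted p = 3.87e-11), and -4.82 without the 10 µM replicate 1. LINC02490 (chr15:53034723-53035223) had 32.0, 29.8 and 32.0 CPM at 0 µM, 20.3, 19.3 and 12.8 CPM at 2 µM, and 2.82 and 3.48 CPM at 10 µM. The 3 doses did not overlap in either gene, and the fall of LINC01258 at 2 µM against 0 µM lost its call without the 2 µM replicate 2 (log2 difference -0.70) or the 2 µM replicate 3 (-0.64), against -0.79 with all libraries.

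PRM3, of the protamine cluster that packs sperm DNA, had 14.8, 17.0 and 12.5 CPM at 0 µM, 12.7, 9.28 and 10.8 CPM at 2 µM, and 1.07 and 1.74 CPM at 10 µM. It fell at 10 µM against 2 µM (log2 difference -3.01 ± 0.33, edgeR, adjusted p = 6.83e-09). At 2 µM against 0 µM its log2 difference of -0.45 ± 0.20 was not called (edgeR, adjusted p = 0.103), but it was called without the 10 µM replicate 1 or 2, at -0.50 in each case. KCNN3, a small-conductance potassium channel, had 12.1, 10.7 and 10.0 CPM at 0 µM, 6.19, 4.81 and 5.18 CPM at 2 µM, and 3.09 and 2.39 CPM at 10 µM. RNA of these 4 genes was at most 0.0768 CPM in every library, close to the limit of counting.

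The summed RNA of the member genes is given as a description, since the rule kept it low at 0 µM. The control libraries held 897, 1192 and 1817 counts of these genes. Libraries of 2 µM held 4154, 4314 and 3933 such counts, and those of 10 µM held 13783, 12981 and 12876. Few of the genes reached 1 CPM, and their share of these counts was not computed. Of 1394 genes, 7 (0.502%) averaged 1 CPM or more at 2 µM and 42 (3.01%) at 10 µM, against 0.137% and 0.327% of all 43129 silent genes, and 44 did so at either dose. At 0.1 CPM or more stood 266 genes (19.1%) at 2 µM and 343 (24.6%) at 10 µM, against 4.14% and 4.72% of all silent genes. The member genes were already ahead at 0 µM, where 775 of the 1394 had any count, against 9341 of the 43129 silent genes. Of the members 2.73% stood at 0.1 CPM or more at 0 µM, against 0.839% of all silent genes. These levels are CPM after TMM scaling, and they carry no test. At the other end, 361 genes (25.9%) had no count in any of the 9 libraries.

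Levels of RNA at 10 µM were also counted by the call of the peak at 10 µM against 0 µM, with no test of the difference between these gene groups. Of 391 genes with a peak that rose, 129 (33%) had 0.1 CPM or more at 10 µM and 29 (7.42%) had 1 CPM or more. Of 330 genes with a peak that fell, 48 (14.5%) had 0.1 CPM or more and 1 (0.303%) had 1 CPM or more. Of 655 genes with no called peak the shares were 24.1% and 1.83%. The 18 genes with peaks called in both directions had shares of 44.4% and 0%. No RNA count at 10 µM was found for 132 of the 391 genes (33.8%) with a peak that rose. The same held for 245 of the 655 genes (37.4%) with no called peak and 152 of the 330 (46.1%) with a peak that fell. Of the 18 genes with both, 5 (27.8%) had no count.

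**Figure D3:**
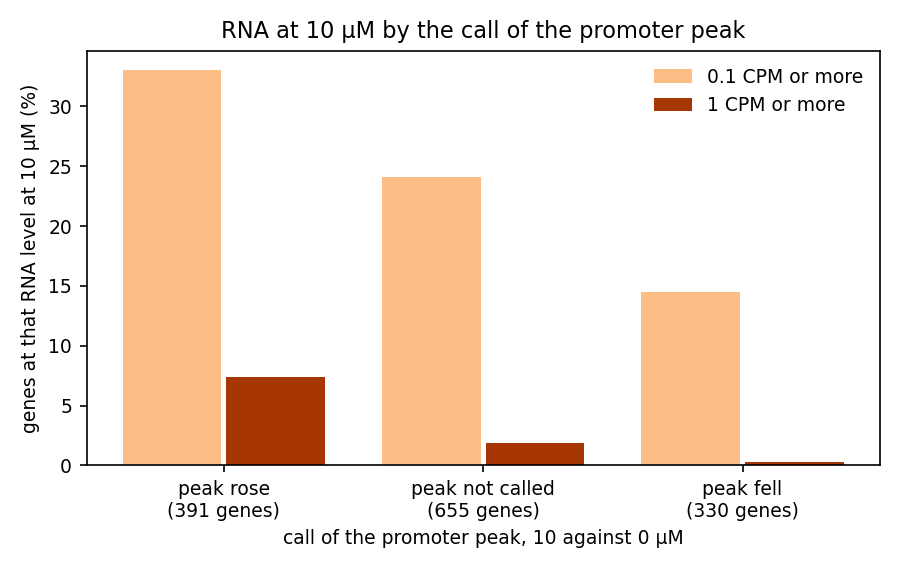
Bars give the percentage of member genes with RNA of at least 0.1 CPM (light) or 1 CPM (dark) at 10 µM, by the call of their promoter peak at 10 against 0 µM. The share at 1 CPM or more is 7.42% where the peak rose, 1.83% where it was not called and 0.303% where it fell.

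At 10 µM against 2 µM, 160 member genes passed the filter on low counts and 58 rose and 8 fell (edgeR, adjusted p under 0.05), beside 16.8% and 21.6% of all 18999 genes tested. Because many passed the filter only through the dose at which they were high, these counts describe the genes that passed and support nothing about the members. Of the 58 genes whose RNA rose, 28 (48.3%) had a peak that rose in the same comparison, 7 had one that fell, 1 had both and 22 (37.9%) had none called. Of 63 genes with a peak that rose and RNA tested, 44.4% had RNA that rose, beside 34.4% of 64 genes with no called peak, 28% of 25 with a peak that fell, and 58 of all 160. The difference between these shares was not tested. Of the 8 genes whose RNA fell, 5 had a peak that fell.

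**Figure D4:**
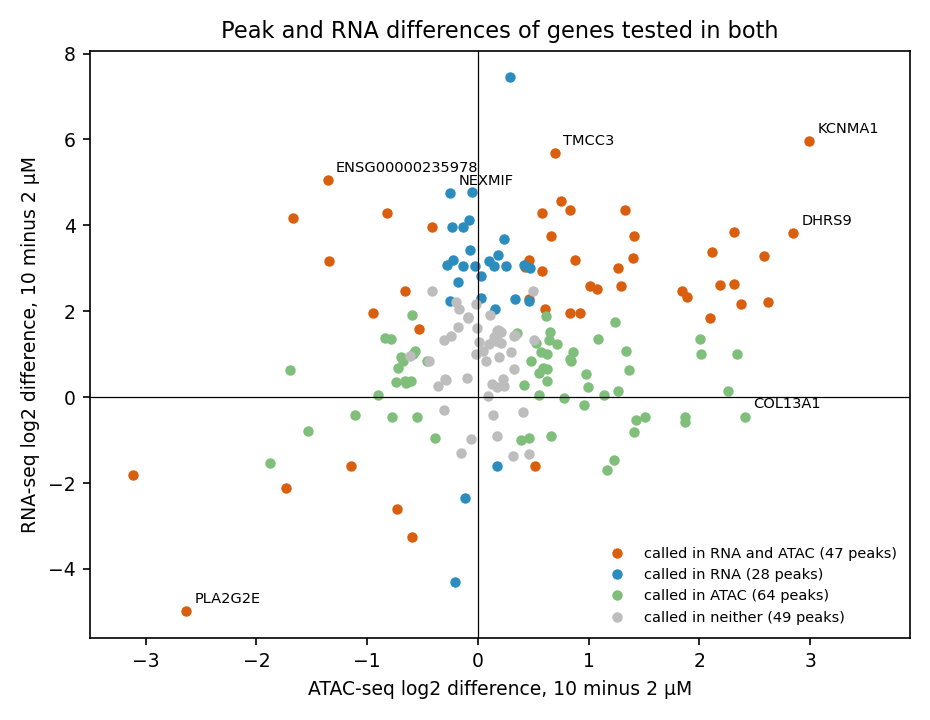
Each of 188 points is a member peak whose gene was tested in RNA, placed by its ATAC-seq (horizontal) and RNA-seq (vertical) log2 difference, 10 minus 2 µM, and coloured by which test called it. DHRS9 and KCNMA1 lie at the upper right, 28 points are called in RNA alone, and ENSG00000235978 rises in RNA with a falling peak. Where a gene had no count at 1 of the doses, its fitted RNA difference depends on the prior count.

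Among genes whose RNA rose with little or no change of the peak, NEXMIF (ENSG00000050030), an X-linked gene of neurite extension, had 0.0938, 0.0772 and 0.0768 CPM of RNA at 0 µM, 0.1, 0.291 and 0.0639 CPM at 2 µM, and 3.66, 4.13 and 4.51 CPM at 10 µM. Its RNA log2 difference at 10 µM against 2 µM was 4.74 ± 0.50 (edgeR, adjusted p = 1.49e-05), and 5.61 without the 2 µM replicate 2. The NEXMIF peak had 15.3, 15.9 and 18.7 CPM at 0 µM, 20.6, 22.3 and 18.3 CPM at 2 µM, and 16.2 and 17.6 CPM at 10 µM. The peak difference at 10 µM against 0 µM was 0.02 ± 0.18 (log2, edgeR, adjusted p = 0.947).

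ANKRD44 (ENSG00000065413), a regulatory subunit of protein phosphatase 6, had RNA of 0.0625, 0.0514 and 0.0768 CPM at 0 µM, 0.703, 1.48 and 0.469 CPM at 2 µM, and 4.26, 4.71 and 4.25 CPM at 10 µM. Its peak was among the more open ones, with 39.0 and 33.9 CPM at 10 µM, against 41.7, 39.6 and 46.8 CPM at 0 µM. The peak difference was -0.22 ± 0.15 (log2, edgeR, adjusted p = 0.213) and the RNA difference at 10 µM against 2 µM 2.32 ± 0.41 (log2, edgeR, adjusted p = 0.000794), or 2.91 without the 2 µM replicate 2. The 10 µM libraries of the peak lay just below the control ones, a difference that did not pass the test. GRIP1, a scaffold that binds glutamate receptors, had RNA of 0.0938, 0.154 and 0.0768 CPM at 0 µM, 0.853, 0.606 and 0.490 CPM at 2 µM, and 5.93, 7.86 and 5.44 CPM at 10 µM, while its peak had 17.6 and 15.0 CPM at 10 µM, against 13.8, 10.1 and 12.1 CPM at 0 µM. RIMKLB, a ligase that makes N-acetylaspartylglutamate, had RNA of 0, 0.0772 and 0.256 CPM at 0 µM, 0.803, 0.849 and 0.405 CPM at 2 µM, and 7.03, 4.79 and 4.61 CPM at 10 µM, while its peak had 18.4 and 13.0 CPM at 10 µM, against 10.7, 9.65 and 8.52 CPM at 0 µM. Both peaks were called as rising at 10 µM against 0 µM. The log2 differences were 0.48 ± 0.20 for GRIP1 and 0.74 ± 0.20 for RIMKLB (edgeR, adjusted p = 0.0366 and 0.00228). The GRIP1 call was lost with DESeq2 (0.42), with a replicate block (0.42), and without the 0 µM replicate 2 (0.30) or 3 (0.44). The rise of the RIMKLB peak lost its call without the 10 µM replicate 1.

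A few genes had RNA at 2 µM that was lower again at 10 µM. BTBD18 (ENSG00000233436), in mice a factor for transcription of piRNA loci in the testis, had no count at 0 µM, 1.73, 1.94 and 2.13 CPM at 2 µM, and 0.0478, 0.0769 and 0.465 CPM at 10 µM. The RNA log2 difference at 10 µM against 2 µM was -3.26 ± 0.71 (edgeR, adjusted p = 0.0044), and -4.87 without the 10 µM replicate 3. PLA2G2E (ENSG00000188784), a secreted phospholipase A2, had RNA of 0.0313, 0 and 0 CPM at 0 µM, 0.879, 0.728 and 1.34 CPM at 2 µM, and 0.0478, 0 and 0.0404 CPM at 10 µM. Its peak had 8.25, 8.02 and 9.28 CPM at 0 µM, 17.5, 9.28 and 15.1 CPM at 2 µM, and 1.88 and 2.83 CPM at 10 µM. The rise of the peak at 2 µM against 0 µM was 0.74 ± 0.22 (log2, edgeR, adjusted p = 0.0134). That call was lost with DESeq2 and without the 0 µM replicate 2 or the 2 µM replicate 1 or 3. At 10 µM the peak lay below its control (log2 difference -1.90 ± 0.32, edgeR, adjusted p = 4.67e-06). The fall of the peak at 10 µM against 2 µM was -2.64 ± 0.31 (log2, edgeR, adjusted p = 1.56e-08) and that of the RNA -4.98 ± 0.83 (log2, edgeR, adjusted p = 0.000532), or -4.39 without the 10 µM replicate 2.

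KCNH3 (ENSG00000135519), a voltage-gated potassium channel, had RNA of 0.13, 0.0514 and 0.0256 CPM at 0 µM, 1.46, 0.534 and 1.09 CPM at 2 µM, and 0.0239, 0 and 0.121 CPM at 10 µM. The RNA log2 difference at 10 µM against 2 µM was -4.31 ± 0.88 (edgeR, adjusted p = 0.002), but -6.21 without the 10 µM replicate 3 and -3.72 without the 10 µM replicate 2. Its peak, at 9.26 and 8.48 CPM at 10 µM and 14.3, 10.5 and 9.28 CPM at 0 µM, passed no test. The non-coding gene HCG11 had the highest RNA of the members at 2 µM, with 0.0938, 0.0772 and 0 CPM at 0 µM, 4.37, 4.54 and 2.98 CPM at 2 µM, and 0.646, 1.35 and 1.92 CPM at 10 µM. Of its 3 member peaks, the one over the start had 6.79, 7.75 and 6.82 CPM at 0 µM, 12, 15.1 and 15.0 CPM at 2 µM, and 5.37 and 7.83 CPM at 10 µM, and it rose at 2 µM against 0 µM (log2 difference 0.98 ± 0.21, edgeR, adjusted p = 0.000791). The other 2 did not follow the RNA. One (chr6:26520303-26520803) had 12.7 and 10.7 CPM at 10 µM, against 9.22, 8.43 and 6.82 CPM at 0 µM, a log2 difference of 0.54 ± 0.22 (edgeR, adjusted p = 0.0318). The next (chr6:26520992-26521492) had 17.7 and 15.4 CPM at 10 µM, against 11.4, 11.7 and 9.47 CPM at 0 µM, a log2 difference of 0.62 ± 0.21 (edgeR, adjusted p = 0.0106), and it exceeded 2 µM by 0.51 ± 0.21 (log2, edgeR, adjusted p = 0.04). Both calls against 0 µM were lost without the 0 µM replicate 3 (0.38 and 0.47) or the 10 µM replicate 1 (0.38 and 0.49), and the peak at chr6:26520303-26520803 also lost it without the 0 µM replicate 2 (0.53). The call against 2 µM was lost without the 0 µM replicate 3, the 10 µM replicate 1 or the 2 µM replicate 1 (0.51, 0.43 and 0.34).

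**Figure D5:**
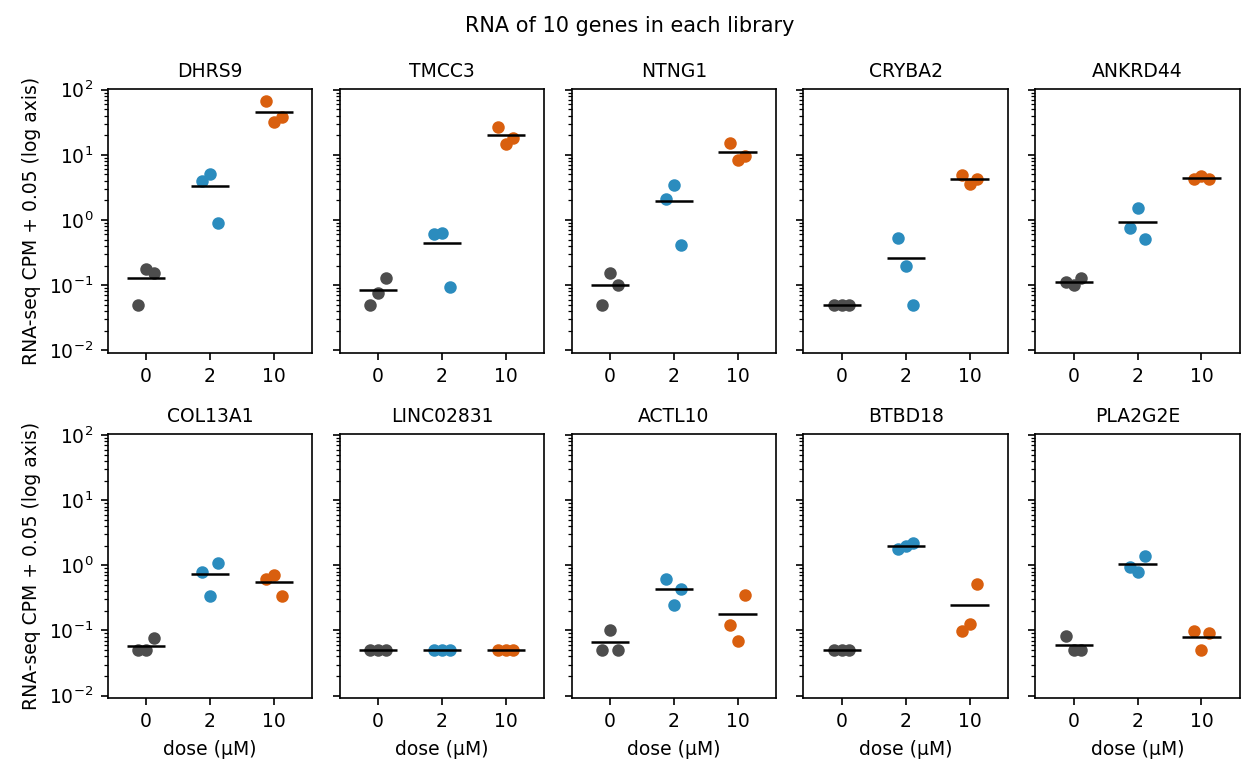
Points are RNA-seq levels (CPM plus 0.05, log axis) of 10 member genes in each of the 9 libraries by dose, with the mean of each dose as a line. DHRS9, TMCC3, NTNG1, CRYBA2 and ANKRD44 are highest at 10 µM, BTBD18 and PLA2G2E at 2 µM, and LINC02831 has no count at any dose although its peak reached 49.2 CPM.

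In other genes peak and RNA moved in opposite directions. The non-coding gene ENSG00000235978 (peak at chr3:4868805-4869305) had 12.4, 10.5 and 8.90 CPM in its peak at 0 µM, 7.22, 4.81 and 4.23 CPM at 2 µM, and 2.01 and 1.96 CPM at 10 µM. Its RNA was 0.13, 0.0257 and 0 CPM at 0 µM, 0.301, 0.388 and 0.0426 CPM at 2 µM, and 10.6, 5.32 and 8.25 CPM at 10 µM. At 10 µM against 2 µM the peak fell by 1.36 (SE 0.36, log2, edgeR, adjusted p = 0.00203) and the RNA rose by 5.06 ± 0.66 (log2, edgeR, adjusted p = 7.94e-05). This peak lay 37446 bp from the nearest RefSeq start of the gene, so it need not be the promoter of the RNA counted. DNAH7, an axonemal dynein heavy chain, had 13.3 and 14.6 CPM in its peak at 10 µM, against 25.4, 24.4 and 24.0 CPM at 2 µM, and RNA of 0.766, 0.307 and 0.910 CPM at 10 µM, against 0.0251, 0.0243 and 0.0426 CPM at 2 µM. Its peak fell by 0.82 (SE 0.17, log2, edgeR, adjusted p = 0.000155) and its RNA rose by 4.28 ± 0.88 (log2, edgeR, adjusted p = 0.00213). How the counting treated overlapping genes was not tested.

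Neighbouring peaks of 1 gene did not always move alike. LIME1, an adaptor of lymphocyte signalling, had 5 peaks and no RNA count in any library. At 10 µM against 0 µM one of them (chr20:63735332-63735832) fell to 6.98 and 13.5 CPM, against 37.3, 35.5 and 33.0 CPM at 0 µM. Another (chr20:63736080-63736580) had 20.4, 14.3 and 13.3 CPM at 0 µM, 38.8, 33.0 and 24.4 CPM at 2 µM, and 12.2 and 18.7 CPM at 10 µM. The peak at chr20:63708376-63708876 lies within 1000 bp of a start of the expressed gene ZGPAT. The pseudogene SMG1P3 had 4 peaks, and whether its reads were split between similar copies of the sequence was not tested.

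Gene lists for other lineages showed few members. Each list was drawn up with earlier results of these data known. The counts below stand beside 29.9% of all peaks that rose and 27.6% that fell at 10 µM against 0 µM, and 27.5% and 27.6% at 10 µM against 2 µM. Lists with so few peaks cannot be read as differing from these shares. Of 127 neuronal receptor, channel and synapse genes, 108 were silent and 16 were members with 20 peaks. At 10 µM against 0 µM 5 of these peaks rose and 9 fell, and at 10 µM against 2 µM 2 rose and 10 fell, with medians of -0.44 and -0.48 against 0.05 and 0.06 over all peaks. At 2 µM against 0 µM 4 rose and none fell, beside 15.5% and 7.3% of all peaks. The NMDA receptor subunit gene GRIN2A had 13.3 and 12.8 CPM at 10 µM, against 2.43, 0.680 and 1.52 CPM at 0 µM. That peak lay 60098 bp from the nearest RefSeq start of GRIN2A. Another NMDA receptor subunit gene, GRIN2C, had 6.04 and 9.57 CPM at 10 µM, against 16.0, 16.9 and 21.2 CPM at 0 µM. STMN4, a stathmin of neurons, had 10.5 and 14.6 CPM at 10 µM, against 1.21, 1.36 and 2.65 CPM at 0 µM.

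The homeobox list had 8 members with 8 peaks, of which 2 rose and 2 fell at 10 µM against 0 µM. NKX2-1, a factor of thyroid and lung, had 10.9 and 7.83 CPM at 10 µM, against 19.2, 16.0 and 18.0 CPM at 0 µM (log2 difference -0.88 ± 0.20, edgeR, adjusted p = 0.000251). PAX9, a factor of tooth and pharynx development, had 15.2 and 13.3 CPM at 10 µM, against 7.52, 6.39 and 7.58 CPM at 0 µM (log2 difference 1.01 ± 0.23, edgeR, adjusted p = 0.000234). NKX2-1 had no RNA count in any library, and PAX9 had 11 counts at 10 µM and none at the other doses.

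Leukocyte markers had 7 members with 11 peaks, of which 4 rose and 1 fell at 10 µM against 0 µM. GATA3, a T-cell factor, had a peak over a start with 16.6 and 16.7 CPM at 10 µM, against 9.94, 5.85 and 8.14 CPM at 0 µM, and a second peak, just upstream of a start, with 9.79 and 14.8 CPM at 10 µM, against 34.0, 36.8 and 28.6 CPM at 0 µM. The 2 peaks of this gene moved apart (log2 differences 1.11 ± 0.22 and -1.47 ± 0.19, edgeR, adjusted p = 6.61e-05 and 4.58e-08). Cytokines had 5 members with 7 peaks, of which 3 rose and 1 fell. IL17C had 14.0 and 16.3 CPM at 10 µM, against 5.82, 3.67 and 4.17 CPM at 0 µM, and CSF2 had 20.4 and 19.1 CPM at 10 µM, against 11.4, 9.65 and 9.85 CPM at 0 µM. CSF3, whose product drives neutrophil formation, was the member of this list at 1 CPM or more, with RNA of 0.0313, 0.129 and 0 CPM at 0 µM, 0.577, 0.801 and 0.320 CPM at 2 µM, and 0.957, 1.25 and 0.849 CPM at 10 µM.

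Striated muscle genes had 4 members with 5 peaks, of which 2 rose and 1 fell at 10 µM against 0 µM. Both risen peaks belong to LDB3, a Z-disc protein, whose first had 28.8 and 24.4 CPM at 10 µM, against 4.37, 2.86 and 5.49 CPM at 0 µM. The LDB3 peaks lay 13729 and 3159 bp from the nearest RefSeq start of the gene. MYH7, the beta myosin heavy chain, had 5.77 and 6.74 CPM at 10 µM, against 39.0, 29.9 and 24.6 CPM at 0 µM (log2 difference -2.32 ± 0.22, edgeR, adjusted p = 8.1e-11). Fibroblast and smooth muscle markers had 4 members with 4 peaks, and 1 rose, that of the fibrillar collagen gene COL11A1 (14.1 and 13.0 CPM at 10 µM, against 0.728, 1.77 and 2.08 CPM at 0 µM). The COL11A1 peak lay 228504 bp from the nearest RefSeq start of that gene. The peak annotated to PDGFRA, a growth factor receptor, lay 851453 bp from the gene's RefSeq start and over the start of the expressed gene FIP1L1. Germline, meiosis and piRNA genes had 3 members with 4 peaks, of which 1 rose, that of the crossover factor RNF212 (11.3 and 12.2 CPM at 10 µM, against 5.82, 4.89 and 4.92 CPM at 0 µM). The RNF212 peak lay 30728 bp from the nearest RefSeq start of that gene. The meiotic genes SYCE3 and PRDM9 had no peak called at 10 µM against 0 µM. Genes often methylated in liver cancer had 2 members with 3 peaks, of which 1 rose, that of the estrogen receptor gene ESR1 (10.6 and 10.7 CPM at 10 µM, against 5.34, 3.67 and 7.20 CPM at 0 µM). The ESR1 peak lay 1534 bp from the nearest RefSeq start of that gene. No member came from the lists of cancer-testis antigens, endothelial markers, keratins and epithelial barrier genes, imprinted genes or liver identity genes.

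At the threshold that chose the members, TPD52L1 and RIMKLB were the last inside, both at 0.0997 CPM, and TECTA and ZNF341-AS1 the first outside, both at just over 0.1 CPM. The peak of TPD52L1 averaged 17.3, 18.5 and 13.2 CPM at 0, 2 and 10 µM, and that of RIMKLB 9.62, 11.5 and 15.7 CPM. The peak of TECTA averaged 24.9, 22.0 and 25.2 CPM and that of ZNF341-AS1 13.7, 15.5 and 25.8 CPM.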

How the data were processed

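The authors deposited raw counts per gene for 9 RNA-seq libraries and raw counts per 501 bp peak for 8 ATAC-seq libraries of HepG2 cells, with a peak list whose score column was used for no value. Their normalized table holds a deposited signal, counts divided by 1 size factor per library, in which 2 columns at 10 µM hold each other's counts; it was used for that check alone. Per the submitters' processing notes the tools include HISAT2 2.2.1, HTSeq 2.0.4, DESeq2 1.42.1 and DiffBind 3.12.0 and the build is hg38. How peaks were called, and whether counting used the strand that the library kit keeps, are not given in the sources used here. Peak annotation and distances to starts are those of the authors' deposited table.

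Doses were compared with edgeR 4.0.16 (R 4.3.3, limma 3.58.1): filterByExpr, TMM scaling, 1 quasi-likelihood fit per assay over all its libraries, and Benjamini-Hochberg adjustment over all peaks or genes of a comparison. Where replicates of a dose are not known to be separate cultures, the spread may be technical. The fits were tested on simulated data. CPM are at the TMM-scaled library size with no prior count, log2 differences use a prior count of 0.125, and SE is the log2 difference over the root of F. Replicate numbers did not pair the libraries of the tested comparisons and no block was used; same-numbered RNA libraries at 2 and 0 µM, a comparison not tested, deviated together (correlations 0.3246 to 0.3883). The limit from 0 counts is 3 counts, for counting error alone. Alternatives were DESeq2 1.42.0, other scalings and filters, other definitions of a silent gene, leaving out each library, and a replicate block.

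Named peaks are the 8 with the largest change in each direction per ATAC-seq comparison (called, no overlap of doses, at least 1 CPM), the 8 per direction in RNA, those called in both assays, up to 4 of each list, the 2 genes with most peaks, the genes at the threshold and the 8 with most RNA at each treated dose. Some of these are not reported here. The members, the lists and the tests were chosen with earlier results of these data known.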

Additional observations from a re-analysis of the deposited data

How the results depend on the processing

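In ATAC-seq, counts are given as peaks that rose and that fell. A log2 change of at least 1 left 234 and 172 at 10 µM against 0 µM, 168 and 157 at 10 µM against 2 µM, and 70 and 6 at 2 µM against 0 µM. Genes with 0 control counts gave 209 and 153, 192 and 149, and 87 and 28 in the same order, and peaks within 1000 bp of their own RefSeq start, a split chosen after seeing the data, gave 198 and 193, 203 and 176, and 72 and 28; both keep fewer peaks. At 2 µM against 0 µM, DESeq2 called 96 that rose, and a fit on those 2 doses alone called 131 that fell. The members' median at 10 µM against 0 µM was 0.01736 with 2 doses only, 0.00187 with total counts and 0.01657 without peaks near an expressed start, a split also chosen after seeing the data. At 10 µM against 2 µM it was 0.001976 with total counts and changed sign to -0.02113 without peaks near an expressed start. Except where given, the cause was not tested.

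Leaving out 1 library, the counts ranged from 343 to 449 that rose and 341 to 389 that fell at 10 µM against 0 µM, 315 to 468 and 264 to 360 at 10 µM against 2 µM, and 82 to 181 and 38 to 135 at 2 µM against 0 µM. The medians ranged from -0.03647 to 0.07306, 0.02483 to 0.09191, and -0.04901 to 0.0221. In RNA-seq at 10 µM against 2 µM the range was 47 to 80 that rose and 6 to 13 that fell, the highest without the 0 µM replicate 3 for those that fell.

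RNA calls that rose and fell were 35 and 5 for genes under 0.05 CPM, 95 and 23 under 0.2 CPM, 9 and 2 with 0 control counts, 19 and 1 with a mean of at least 1 CPM, and 89 and 18 with no filter, each of which tests another number of genes. DESeq2 called 14 that fell. In the tested comparisons, replicate numbers shared by doses did not mark paired libraries (correlation of same-numbered deviations -0.2263 to 0.1374 in ATAC-seq, and -0.0575 to 0.0762 between 10 and 2 µM in RNA-seq). Same-numbered RNA libraries at 2 and 0 µM, which enter the same fit but are not compared, correlated at 0.3246, 0.3883 and 0.3585. With a replicate block 404 peaks rose and 370 fell at 10 µM against 0 µM, 369 and 333 at 10 µM against 2 µM, and 150 and 50 at 2 µM against 0 µM, while 57 genes rose and 7 fell in RNA, or 60 and 8 with the names of the 10 µM replicates 2 and 3 exchanged, as in the deposited normalized table (chosen after seeing the data). Over the named genes and peaks, 4782 alternative values kept direction and call, 229 lost the call, 18 gained one and none changed sign while called.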
